A study of Homo sapiens with 6 samples.

Results

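The cadherin superfamily was examined in A204 cells given the histone deacetylase inhibitor SAHA and in control cells. Its members were taken by symbol: the genes named CDH with a number, all protocadherins (PCDH), the desmocollins DSC1 to DSC3, the desmogleins DSG1 to DSG4, FAT1 to FAT4, the Dachsous genes DCHS1 and DCHS2, and CELSR1 to CELSR3. Of 18417 genes measured, 79 belonged to the superfamily, each represented by a probe set that names no other gene. A further 28 protein-coding genes of the same names, among them CDH4, CDH13 and 21 of the gamma protocadherins, had no probe set of their own and were not analysed here.

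A204 is a long-established human line of rhabdoid tumour cells; such tumours typically lack SMARCB1, which belongs to the SWI/SNF complex that remodels chromatin. SAHA (vorinostat) inhibits histone deacetylases, which remove acetyl groups from histones. The 3 SAHA arrays came from cells treated for 12 h, and the 3 control arrays from cells given DMSO per the treatment protocol, although another label gives their treatment as none. The unit of the dose is cut short in the labels, so no concentration can be stated, nor do they tell whether the 3 arrays of each group represent separate cultures. The p-values therefore measure only the spread between arrays, which may be technical.

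Cadherins are membrane proteins whose repeated extracellular domains bind calcium and hold neighbouring cells together. Classical cadherins bind catenins inside the cell, which link them to actin, whereas the desmosomal cadherins are joined through plaque proteins to intermediate filaments such as keratins. Protocadherins adhere more weakly and are best known for cell recognition in the nervous system. The FAT, Dachsous and CELSR cadherins are very large proteins of planar cell polarity, the alignment of cells within a sheet.

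Levels below are log2 signals of a gene's probe set, and changes are SAHA minus control on that scale. A change was called when limma's p-value, adjusted over all 18417 genes with the Benjamini-Hochberg method, was under 0.05. By that rule 60% of all genes changed, 31.1% being higher and 28.9% lower in SAHA. Each count of calls below, in a subfamily or a list, is to be read beside these shares. Leaving out genes with a mean under the median gave 7653 calls in place of 11049, with 3993 lower in place of 5314. Calls were thus more frequent at higher signals, where the shares of all genes are too low a comparison. Among the 79 cadherin genes 30 were higher, 19 were lower and 30 did not pass, so 62.0% were called, a share near that of all genes. The median change was 0.07 over the 79 genes and -0.0027 over all genes. Of the 29 cadherin genes whose mean signal reached the median of all genes, 6 were higher and 15 were lower. At least 2-fold changes were called for 5.84% of all genes upward and 5.42% downward, against 9 of the 79 cadherin genes upward (11.4%) and 2 downward (2.53%). The 3 SAHA values and the 3 control values did not overlap for 54 of the 79 genes, beside 65.4% of all genes.

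**Figure D1:**
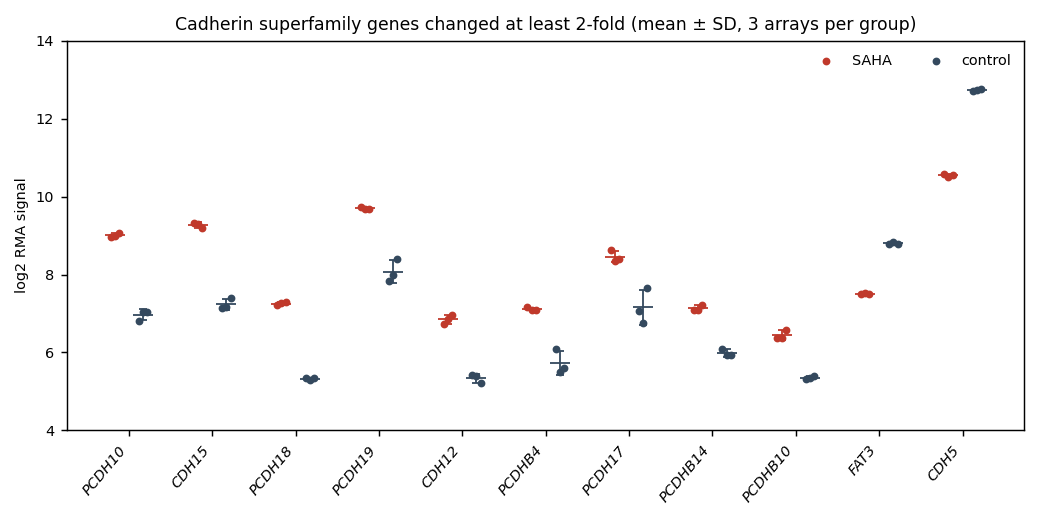
Log2 signal of the 11 cadherin superfamily genes changed at least 2-fold, with each of the 3 SAHA arrays (red, left) and 3 control arrays (dark blue, right) as a point and the mean ± SD as bars. For all 11 genes the SAHA points lie entirely above or entirely below the control points.

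The arrays of each group were closely alike over all genes, with Pearson correlations of 0.998 to 0.999 within groups and of 0.953 to 0.954 between them. The cell type was checked against marker lists. A gene without transcript does not sit at 0 on this scale, since the lowest signal of any probe set was 6.56 before log2, so a low level is not by itself evidence of expression. KRT8, a keratin of simple epithelia that rhabdoid cells also carry, stood at 13.48 ± 0.02 in SAHA and 13.55 ± 0.01 in control, and VIM (vimentin) at 12.63 ± 0.02 in SAHA and 12.81 ± 0.03 in control (SD, n = 3 each). SMARCB1 gave 7.22 ± 0.05 in SAHA and 7.74 ± 0.04 in control (SD, n = 3 each), a level that cannot be read as present or absent because no detection calls were used. In such bulk RNA, fewer cells of a type and less RNA per cell cannot be told apart.

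**Figure D2:**
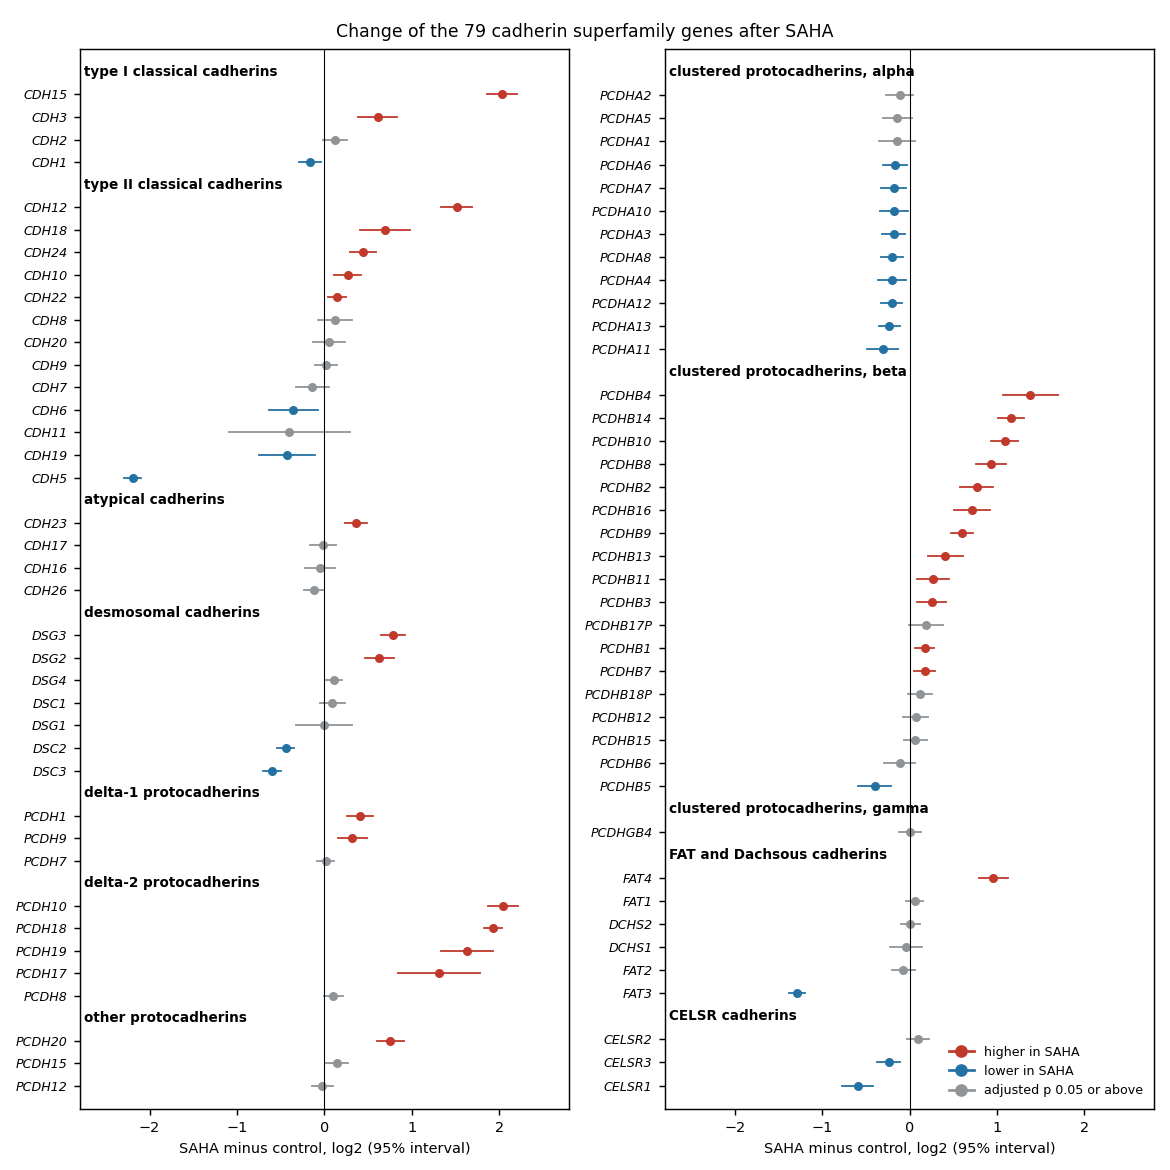
Change of each of the 79 genes in log2 units, SAHA minus control, as a point with its 95% interval, ordered within subfamilies and coloured by call. The delta-2 and beta protocadherins lie mostly right of 0, the alpha protocadherins all lie between -0.31 and -0.12, and CDH5 lies farthest to the left at -2.19.

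Of the 4 type I classical cadherins, which form adherens junctions, CDH15 and CDH3 rose, CDH1 fell slightly and CDH2 did not pass. CDH15, the M-cadherin of skeletal muscle and its satellite cells, gave 9.33, 9.28 and 9.20 in the SAHA arrays, against 7.15, 7.17 and 7.40 in the control arrays. All SAHA values lay above all control values, and the change was 2.03 ± 0.07 (SE), or 4.08-fold (adjusted p = 1.69e-07). CDH3 (P-cadherin), typical of basal epithelial cells, gave 6.52, 6.56 and 6.53 in SAHA, against 6.15, 5.91 and 5.72 in control, a 1.52-fold rise (adjusted p = 0.000725).

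CDH1 (E-cadherin), the main adhesion protein of epithelia, gave 9.47, 9.37 and 9.42 in SAHA, against 9.54, 9.56 and 9.67 in control. Its 1.12-fold fall was called at adjusted p = 0.0254, but the call was lost in 6 of 17 alternative treatments of the data, among them those without SAHA replicate 2 (adjusted p = 0.0893), SAHA replicate 3 (0.0674) or control replicate 3 (0.0625). Over the 17 the adjusted p ran from 0.00985 to 0.141. CDH2 (N-cadherin), typical of neural and mesenchymal cells, gave 5.62, 5.50 and 5.69 in SAHA, against 5.53, 5.43 and 5.50 in control. Its groups overlapped, and the difference of 0.12, with a 95% interval of -0.02 to 0.25, did not pass (adjusted p = 0.129), although it did without SAHA replicate 2 (adjusted p = 0.0437).

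Of 9 skeletal muscle markers, measured beside the rise of CDH15, 1 was higher, 1 was lower and 7 did not pass, and their summed signal was 1258 to 1295 in SAHA and 1146 to 1205 in control. The higher one was DES (desmin), at 8.34 ± 0.11 in SAHA and 7.58 ± 0.08 in control. MYOD1 and MYOG, the transcription factors that define muscle cells, did not pass, with MYOD1 at 6.37 ± 0.06 in SAHA and 6.49 ± 0.14 in control and MYOG at 7.46 ± 0.03 in SAHA and 7.34 ± 0.10 in control (SD, n = 3 each). The lower one was the muscle transcription factor MYF6, by 1.10-fold. The count of lower markers was 5 after a further quantile normalization. It was 0 without SAHA replicate 1, SAHA replicate 2 or control replicate 2 and 2 without SAHA replicate 3, and without control replicate 1 the higher ones were 2.

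Of 8 transcriptional repressors of CDH1, 5 were higher in SAHA, 1 was lower and 2 did not pass. SNAI1, a zinc finger repressor that binds E-box sequences in the CDH1 promoter, gave 9.89, 9.62 and 9.66 in SAHA, against 7.57, 7.78 and 7.55 in control, a 4.26-fold rise (adjusted p = 3.72e-07). TCF4 rose 1.96-fold, TWIST1 1.52-fold and SNAI2 1.32-fold, and ZEB1 fell 1.22-fold. The rises of these repressors thus stood beside a 1.12-fold change of CDH1, and no test linked them.

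Of the 13 type II classical cadherins, 5 were higher, 3 were lower and 5 did not pass. Thus 61.5% were called, a share near the 60% of all genes. The fall of CDH5 was the largest change of any of the 79 genes. CDH5 (VE-cadherin), the adhesion protein of endothelial junctions, gave 10.57, 10.51 and 10.54 in SAHA, against 12.71, 12.73 and 12.76 in control. The groups were separated by over 2 log2 units, and the change was -2.19 ± 0.04 (SE), a 4.57-fold fall (adjusted p = 1.1e-08).

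Of 10 endothelial markers measured beside CDH5, 3 were higher, 2 were lower and 5 did not pass. Their summed signal was 780 to 823 in SAHA and 670 to 691 in control. PECAM1, another protein of endothelial junctions, stood at 5.17 ± 0.05 in SAHA and 5.04 ± 0.10 in control and did not pass. VWF, a clotting protein stored by endothelial cells, stood at 6.08 ± 0.07 in SAHA and 5.85 ± 0.21 in control and did not pass, while the growth factor receptor KDR rose 1.56-fold and the junction protein ESAM 1.49-fold (SD, n = 3 each). The lower ones were the receptor TEK and the surface protein EMCN, each changed by -0.18. Without any one of the SAHA replicates, control replicate 1 or control replicate 2, 0 of the 10 were called lower, with adjusted p of up to 0.117 for TEK and 0.141 for EMCN.

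CDH12, a type II cadherin of the brain, was the member of this subfamily that rose most. It gave 6.72, 6.86 and 6.96 in SAHA, against 5.41, 5.39 and 5.21 in control, without overlap and with a 2.85-fold change (adjusted p = 9.58e-07). CDH18, also described in brain, gave 8.08, 7.99 and 8.15 in SAHA, against 7.20, 7.26 and 7.70 in control, a 1.61-fold rise. CDH24 rose 1.36-fold, CDH10 1.20-fold and CDH22 1.10-fold. The call of CDH10 was lost after a further quantile normalization (adjusted p = 0.0924). That of CDH22 was lost in 8 of 16 alternatives, including those without SAHA replicate 1 or 3 or without control replicate 1 or 3, with an adjusted p of up to 0.36.

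CDH6, a cadherin of developing kidney, gave 7.01, 6.80 and 7.14 in SAHA, against 7.21, 7.22 and 7.59 in control (adjusted p = 0.0338). CDH19, known from Schwann cell precursors, gave 5.11, 4.75 and 4.84 in SAHA, against 5.59, 5.33 and 5.07 in control (adjusted p = 0.0277). Its highest SAHA value lay above its lowest control value. The means of CDH19, 4.90 in SAHA and 5.33 in control, lay below those of the blood cell marker CD3E (5.62 and 5.66). They are not by themselves evidence of expression. The call of CDH6 was lost without SAHA replicate 1, SAHA replicate 2 or control replicate 3, with adjusted p of 0.0656, 0.111 and 0.0765. That of CDH19 was lost without SAHA replicate 2, SAHA replicate 3, control replicate 1 or control replicate 2, with adjusted p of 0.0927, 0.0758, 0.0826 and 0.0695.

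CDH11, a mesenchymal and osteoblast cadherin, gave 7.61, 7.38 and 7.60 in SAHA, against 8.29, 8.38 and 7.12 in control. Control replicate 3 lay below every SAHA array while the other control arrays lay above them, and the change of -0.40 did not pass (adjusted p = 0.287). Without control replicate 3 it was -0.80 and passed (adjusted p = 0.000132). CDH7, CDH8, CDH9 and CDH20 did not pass, with changes between -0.14 and 0.12.

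The 4 atypical cadherins measured were CDH16, CDH17, CDH23 and CDH26. CDH23, a tip-link protein of inner ear hair cells, rose 1.29-fold, with 7.17, 7.04 and 7.02 in SAHA, against 6.73, 6.67 and 6.75 in control (adjusted p = 0.000488). PCDH15, its partner in the tip link, gave 4.24, 4.41 and 4.25 in SAHA, against 4.18, 4.14 and 4.16 in control and did not pass (adjusted p = 0.0641). CDH16, CDH17 and CDH26 did not pass either, with changes of -0.05, -0.02 and -0.12. Of 6 measured genes of the Usher and hair bundle complex, 4 were higher, among them CIB2 by 1.40-fold, USH1G by 1.36-fold and ADGRV1 by 1.21-fold, 1 was lower and 1 did not pass. The lower one, CLRN1, changed by -0.15 (adjusted p = 0.0476), and its call was lost with each of the 6 arrays left out, with adjusted p of 0.0517 to 0.16. ADGRV1 (5.04 in SAHA, 4.77 in control) and CLRN1 (4.35 and 4.50) lay below the blood cell marker CD3E (5.62 and 5.66). Levels this low are not by themselves evidence of expression.

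Of the 7 desmosomal cadherins, 2 desmogleins were higher, 2 desmocollins were lower and 3 genes did not pass. Thus 57.1% were called, a share near the 60% of all genes. Desmogleins and desmocollins bind each other across the gap between cells. DSG2, the desmoglein of simple epithelia and heart muscle, gave 11.26, 11.32 and 11.27 in SAHA, against 10.55, 10.59 and 10.82 in control, a 1.55-fold rise (adjusted p = 0.000105). DSG3, the desmoglein of basal skin layers and the target of antibodies in pemphigus vulgaris, gave 6.79, 6.90 and 6.96 in SAHA, against 6.13, 6.12 and 6.03 in control, a 1.72-fold rise (adjusted p = 7.11e-06). For both genes every SAHA array lay above every control array.

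DSC2, the most widely expressed desmocollin, gave 11.11, 11.15 and 11.13 in SAHA, against 11.56, 11.58 and 11.59 in control, a 1.36-fold fall (adjusted p = 2.37e-05). DSC3, typical of basal epidermis, gave 11.89, 11.93 and 11.94 in SAHA, against 12.51, 12.47 and 12.58 in control, a 1.52-fold fall (adjusted p = 9.56e-06). DSC1, DSG1 and DSG4, the desmosomal cadherins of outer skin layers and hair, did not pass. DSC1 gave 10.79, 10.68 and 10.77 in SAHA, against 10.56, 10.65 and 10.76 in control, with overlapping groups.

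The 7 genes lie side by side on chromosome 18, in the order DSC3, DSC2, DSC1, DSG1, DSG4, DSG3 and DSG2. The falls therefore lay at the DSC3 end of this array of genes and the rises at the DSG2 end, with the 3 genes that did not pass between them.

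**Figure D3:**
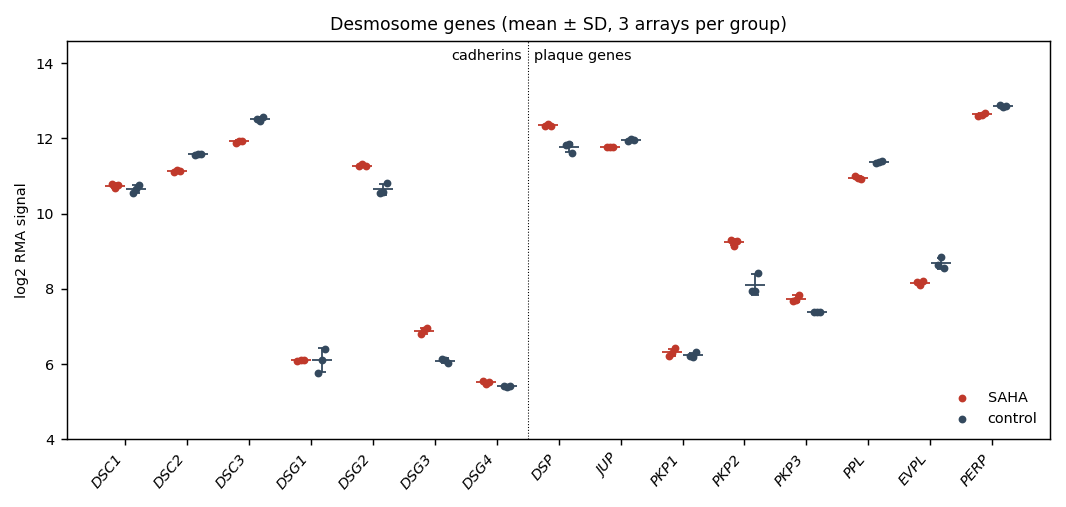
Log2 signal of the 7 desmosomal cadherins (left of the dotted line) and 8 genes of the desmosomal plaque (right of it), with each array as a point and the mean ± SD as bars, SAHA in red and control in dark blue. DSG2, DSG3, DSP and PKP2 are higher in SAHA, and DSC2, DSC3, PPL and EVPL are lower.

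Of the 8 plaque genes, 3 were higher, 4 were lower and 1 did not pass. PKP2 (plakophilin), which binds the cadherin tails, gave 9.30, 9.15 and 9.27 in SAHA, against 7.95, 7.94 and 8.43 in control, a 2.19-fold rise (adjusted p = 8.97e-05). DSP (desmoplakin), the link to the keratin filaments, rose 1.50-fold and PKP3 1.28-fold. The plakins EVPL and PPL fell 1.43-fold and 1.33-fold, the membrane protein PERP 1.16-fold and JUP (plakoglobin) 1.14-fold, while PKP1 did not pass. Of 8 epithelial markers measured beside these genes, 5 were higher, 1 was lower and 2 did not pass. Their summed signal was 25765 to 26405 in SAHA and 26219 to 26602 in control. That sum came mostly from KRT8 and KRT18, at 13.48 and 13.33 in SAHA and 13.55 and 13.54 in control. CLDN4 rose 2.38-fold, KRT19 1.74-fold, CLDN3 1.43-fold, CLDN7 1.16-fold and EPCAM 1.11-fold, and KRT18 fell 1.15-fold. After a further quantile normalization 3 were higher. EPCAM lost its call there and without SAHA replicate 1 (adjusted p = 0.193 and 0.07). Its call was also lost when the probe sets of a gene were averaged, with a change of 0.03 (adjusted p = 0.786). The same held for limma with trend and robust options (adjusted p = 0.0791).

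The delta protocadherins are single genes known from the wiring of the developing brain. Of those measured, PCDH7, PCDH10 and PCDH18 lie on chromosome 4, PCDH8, PCDH9 and PCDH17 on 13, PCDH1 on 5 and PCDH19 on X. The delta-2 genes, whose cytoplasmic tails hold a motif that recruits the WAVE complex of actin assembly in PCDH10, PCDH17 and PCDH19, moved upward: 4 of 5 rose at least 2-fold and PCDH8 did not pass. Their median change was 1.63, against -0.0027 for all genes, of which 5.84% were called higher by at least 2-fold.

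PCDH10, a gene often silenced by promoter methylation in carcinomas, gave 8.97, 8.99 and 9.06 in SAHA, against 6.80, 7.04 and 7.05 in control. Its change of 2.04 ± 0.07 (SE), or 4.12-fold, was the largest rise among the 79 genes (adjusted p = 1.41e-07). PCDH18 gave 7.21, 7.26 and 7.30 in SAHA, against 5.34, 5.30 and 5.34 in control, a 3.81-fold rise (adjusted p = 1.83e-08). In both genes the groups were nearly 2 log2 units apart and the arrays of a group were close together.

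PCDH19, mutated in a form of epilepsy linked to the X chromosome, gave 9.72, 9.69 and 9.68 in SAHA, against 7.82, 7.98 and 8.39 in control, a 3.10-fold rise (adjusted p = 1.13e-05). PCDH17 gave 8.64, 8.34 and 8.41 in SAHA, against 7.07, 6.74 and 7.64 in control, a 2.48-fold rise (adjusted p = 0.000636). The control arrays of these genes were more spread than those of the SAHA group, but the highest control value still lay below the lowest SAHA value. PCDH8, known from synapses, gave 6.52, 6.49 and 6.56 in SAHA, against 6.45, 6.36 and 6.46 in control, a difference of 0.10 with a 95% interval of -0.00 to 0.21 (adjusted p = 0.0913).

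The RefSeq sequences before the start sites of PCDH18 and PCDH19 are shown because these genes rose together while their upstream letters differ. Each run gives the 250 bases before the annotated start, 5′ to 3′ on the strand of the gene (the minus strand for both), in GRCh38.p14, with CG dinucleotides in capitals. The PCDH18 run lies at chr4:137532495-137532744 and the PCDH19 run at chrX:100410274-100410523.
PCDH18: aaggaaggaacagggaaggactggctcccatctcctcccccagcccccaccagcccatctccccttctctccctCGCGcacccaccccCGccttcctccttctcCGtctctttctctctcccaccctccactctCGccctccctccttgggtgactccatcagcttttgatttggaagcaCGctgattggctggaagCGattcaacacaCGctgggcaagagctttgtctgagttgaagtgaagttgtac
PCDH19: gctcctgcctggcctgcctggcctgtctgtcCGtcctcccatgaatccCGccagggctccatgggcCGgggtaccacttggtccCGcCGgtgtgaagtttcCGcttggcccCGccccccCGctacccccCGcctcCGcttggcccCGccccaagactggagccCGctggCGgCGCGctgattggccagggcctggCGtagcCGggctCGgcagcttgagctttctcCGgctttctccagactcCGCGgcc
PCDH18 holds 8 CG dinucleotides in this window at 58.4% G or C, and PCDH19 holds 21 at 72% G or C. PCDH17, which also rose, holds 10, and PCDH8, which did not pass, holds 14. The median over 35116 RefSeq windows was 11, with quartiles at 3 and 23, so the counts of these 4 genes lie between those quartiles. The GC box GGGCGG, read on both strands, occurs 2 times upstream of PCDH19 and is not among the letters of the other windows of delta-2 genes, while 45% of all windows of 300 bases hold it. No window was given for PCDH10.

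Of the 3 delta-1 protocadherins, PCDH1 rose 1.33-fold and PCDH9 1.25-fold, while PCDH7 gave 9.46, 9.45 and 9.44 in SAHA, against 9.45, 9.46 and 9.41 in control and did not pass (adjusted p = 0.81). PCDH20, outside the delta groups here, gave 7.33, 7.19 and 7.42 in SAHA, against 6.53, 6.53 and 6.61 in control, a 1.69-fold rise (adjusted p = 1.8e-05). PCDH12, a protocadherin of endothelial cells, did not pass, with a change of -0.02.

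Of 8 measured genes of protocadherin signalling and the WAVE complex, 0 were higher, 4 were lower and 4 did not pass. NCKAP1, a core WAVE subunit, fell 1.47-fold, its partner CYFIP2 1.31-fold and the focal adhesion kinase PTK2 1.20-fold. These genes thus moved opposite to the 4 delta-2 genes, or did not pass.

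Of 9 neural markers, 5 were higher, 0 were lower and 4 did not pass, and their summed signal was 4379 to 4532 in SAHA and 1515 to 1533 in control. ELAVL3, a neuronal RNA-binding protein, rose 7.75-fold, the neurofilament NEFM 3.55-fold, the synaptic protein SYT1 2.85-fold and STMN2 2.73-fold. SNAP25, another synaptic protein, rose 1.17-fold, a call lost without SAHA replicate 2, SAHA replicate 3 or control replicate 2 (adjusted p = 0.0634, 0.0627 and 0.0508). ELAVL4, RBFOX3 and DCX, which also mark neurons, changed by -0.0078, -0.08 and -0.07, and the neurofilament NEFL by 0.13, and none of these 4 passed. After a further quantile normalization 4 were higher and RBFOX3 was lower. The 5 markers that rose stood beside the rises of the delta-2 protocadherins and CDH12, and their part in those results was not tested.

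The clustered protocadherins sit on chromosome 5 in alpha, beta and gamma groups, and each neuron switches on its own selection of them. Most of their promoters carry a conserved element with a CGCT core, at which the architectural protein CTCF binds and which cohesin brings near distant enhancers. Of 18 beta genes measured, 12 were higher (66.7%, beside 31.1% of all genes), 1 was lower and 5 did not pass. Their median change was 0.26. The alpha genes fell slightly, with 9 of 12 lower (75%, beside 28.9% of all genes), 0 higher and 3 not passing. The alpha median change was -0.18.

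PCDHB4 gave 7.16, 7.10 and 7.09 in SAHA, against 6.09, 5.50 and 5.61 in control, a 2.60-fold rise (adjusted p = 4.3e-05). PCDHB14 gave 7.10, 7.09 and 7.22 in SAHA, against 6.09, 5.92 and 5.93 in control, a 2.23-fold rise (adjusted p = 1.35e-06). PCDHB10 gave 6.36, 6.37 and 6.59 in SAHA, against 5.32, 5.35 and 5.39 in control, a 2.12-fold rise (adjusted p = 2.7e-06). In these 3 genes, the beta genes that changed at least 2-fold, no SAHA value reached down to the control values.

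PCDHB8 rose 1.91-fold, PCDHB2 1.70-fold, PCDHB16 1.64-fold and PCDHB9 1.51-fold. PCDHB13, PCDHB11, PCDHB3, PCDHB7 and PCDHB1 rose by 1.13 to 1.33-fold, and of these PCDHB11, PCDHB3 and PCDHB7 lost the call in 4, 3 and 6 of 16 alternatives. PCDHB11 lost it without SAHA replicate 1 or 3, PCDHB3 without SAHA replicate 3, and PCDHB7 without SAHA replicate 2 or 3 or control replicate 1 or 3, with adjusted p between 0.0531 and 0.0766. PCDHB1 (5.28 in SAHA, 5.11 in control), PCDHB7 (5.51 and 5.34) and PCDHB13 (5.34 and 4.93) lay below the blood cell marker CD3E (5.62 and 5.66). PCDHB8, at 5.62 in SAHA and 4.68 in control, did not exceed CD3E either. Levels this low are not by themselves evidence of expression. PCDHB5 went the other way, with 9.27, 9.31 and 9.16 in SAHA, against 9.67, 9.79 and 9.48 in control, a 1.32-fold fall (adjusted p = 0.00296). PCDHB6, PCDHB12, PCDHB15 and the pseudogenes PCDHB17P and PCDHB18P did not pass, with changes between -0.12 and 0.19.

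Along the chromosome, neighbours could differ: PCDHB5, the beta gene that fell, lies next to PCDHB4, the beta gene that rose most. PCDHB14 lies between PCDHB13, which rose 1.33-fold, and the pseudogene PCDHB18P, which did not pass. The beta genes are close copies of each other, so a probe set may also read a neighbour's transcript, and the number of separate changes is uncertain.

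**Figure D4:**
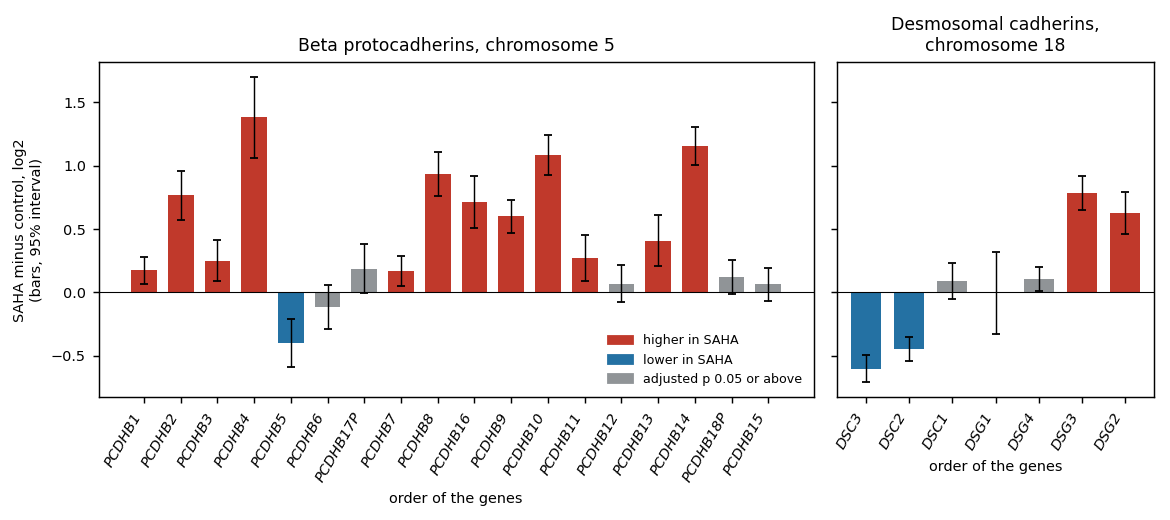
Change in log2 units, SAHA minus control, as bars with 95% intervals for the 18 beta protocadherins (left) and the 7 desmosomal cadherins (right), each in chromosomal order and not to the scale of distance. Among beta genes the fall of PCDHB5 stands beside the rise of PCDHB4, and among desmosomal genes the falls of DSC3 and DSC2 stand at the end opposite the rises of DSG3 and DSG2.

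The letters shared by the beta promoters are shown for 6 genes that rose, did not pass or fell. The 9 letters GGTGGCGCT (AGCGCCACC on the other strand), which contain the CGCT core, were found by counting all runs of that length in the beta windows, so their frequency there is a description. They occurred in 13 of 14 beta windows, the exception being PCDHB1, in 0 of 10 alpha windows and in 0 of 32 windows of other cadherin genes. Over all 35116 windows, reaching from 250 bases before to 50 after the start, 0.501% held them on either strand. The CGCT core alone, on either strand, occurred in 14 of 14 beta, 10 of 10 alpha and 29 of 32 other cadherin windows. Of all windows, 70% held that core, so the absence of the 9 letters from alpha windows is not an absence of the core. The runs below are 29 bases of the plus strand, 5′ to 3′, from RefSeq in GRCh38.p14, with those 9 letters in capitals.
PCDHB4 (chr5:141121724-141121752): caagacgcagGGTGGCGCTgcaggctaag
PCDHB14 (chr5:141223264-141223292): ggagacacatGGTGGCGCTacaggataag
PCDHB10 (chr5:141192300-141192328): gaggccacacGGTGGCGCTgcaggctaaa
PCDHB12 (chr5:141208644-141208672): ggagacgcgtGGTGGCGCTgcaggataat
PCDHB15 (chr5:141245315-141245343): gacaacgcatGGTGGCGCTgcaggctaag
PCDHB5 (chr5:141135180-141135208): taggacgcctGGTGGCGCTgcaggctaag
The first 3 genes rose by 1.38, 1.16 and 1.09 on the log2 scale, PCDHB12 and PCDHB15 did not pass with changes of 0.07, and PCDHB5 fell by 0.40. The shared letters were thus present in beta genes that rose, that fell and that did not pass, and were not among those of PCDHB1, which rose 1.13-fold. The first of the 9 capital letters lies at -84 from the start of PCDHB4, at -69 for PCDHB14 and at -43 for PCDHB10. It lies at -65 for PCDHB12, at -70 for PCDHB15 and at -16 for PCDHB5. The GC box GGGCGG was found in 0 of 14 beta windows and 0 of 10 alpha windows, against 15 of 32 windows of other cadherin genes.

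Among the alpha genes, PCDHA11 gave 8.03, 7.90 and 7.94 in SAHA, against 8.39, 8.30 and 8.11 in control, and had the largest fall of the group at 1.24-fold (adjusted p = 0.00768). PCDHA13 fell 1.17-fold and PCDHA12 1.16-fold, and PCDHA3, PCDHA4, PCDHA6, PCDHA7, PCDHA8 and PCDHA10 fell by 1.12 to 1.15-fold. PCDHA10, the alpha gene with the highest signal of its probe set, gave 9.85, 9.92 and 9.91 in SAHA, against 9.99, 10.23 and 10.01 in control (adjusted p = 0.0494). PCDHA1, PCDHA2 and PCDHA5 did not pass, with changes of -0.14, -0.12 and -0.14, and the 2 probe sets of PCDHA2 differed little, at -0.12 and -0.10.

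A probe set that names 15 alpha genes at once gave 7.06, 7.09 and 7.05 in SAHA, against 7.20, 7.23 and 7.08 in control. The alpha transcripts share their last exons and their first exons are close copies, so the 12 values cannot be taken as separate measurements. Of the 9 calls, a further quantile normalization kept 3 and added PCDHA2, and an unmoderated test kept 4. Without SAHA replicate 2 the fit kept 3, without SAHA replicate 3 it kept 4, and without control replicate 2 it kept 4. The only gamma gene with its own probe set, PCDHGB4, gave 8.75, 8.64 and 8.73 in SAHA, against 8.79, 8.65 and 8.67 in control and did not pass (adjusted p = 0.967).

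Of 13 chromatin factors that act on the clustered protocadherins, 0 were higher in SAHA, 12 were lower and 1 did not pass, with a median change of -0.72. Of all genes, 28.9% were lower, and the median change of all genes was -0.0027. The cohesin subunits SMC1A, STAG1, RAD21 and STAG2 fell 2.46-fold, 2.33-fold, 2.21-fold and 2.17-fold. CTCF gave 9.50, 9.45 and 9.51 in SAHA, against 10.28, 10.32 and 10.21 in control, a 1.72-fold fall (adjusted p = 2.33e-06). SMCHD1, a silencer of the cluster in mouse, fell 1.43-fold, and WAPL, which releases cohesin, did not pass. These falls stood beside rises of the beta genes and falls of the alpha genes, and no test linked them.

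**Figure D5:**
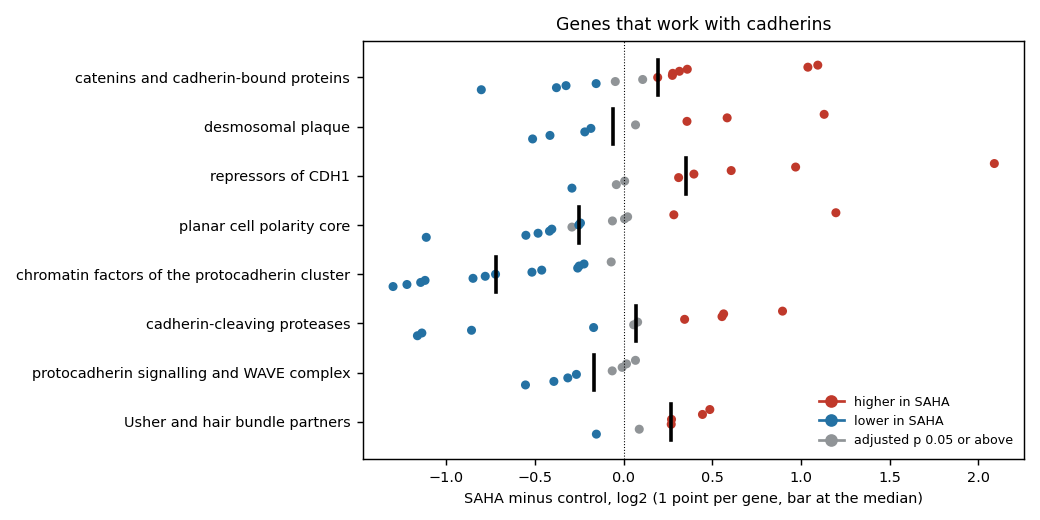
Change in log2 units, SAHA minus control, of the genes of 8 lists that work with cadherins, 1 point per gene coloured by call, with a bar at each list's median. All 13 chromatin factors lie left of 0, with a median of -0.72, whereas the CDH1 repressors have a median of 0.35.

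Of the 6 FAT and Dachsous cadherins, FAT4 rose, FAT3 fell and 4 genes did not pass. FAT4, which binds DCHS1 and restrains growth, gave 9.36, 9.34 and 9.38 in SAHA, against 8.51, 8.47 and 8.24 in control, a 1.94-fold rise (adjusted p = 7.95e-06). FAT3, known from neurons of the mouse retina, gave 7.51, 7.52 and 7.49 in SAHA, against 8.78, 8.82 and 8.79 in control, a 2.45-fold fall (adjusted p = 7.35e-08). The arrays of each group lay within 0.3 of each other for these genes, so both changes exceeded the spread.

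FAT1, a tumour suppressor that is mutated in many carcinomas, gave 12.76, 12.79 and 12.78 in SAHA, against 12.76, 12.68 and 12.73 in control. Its difference of 0.06, with a 95% interval of -0.04 to 0.15, did not pass (adjusted p = 0.288). FAT2 gave 9.26, 9.22 and 9.21 in SAHA, against 9.25, 9.24 and 9.42 in control and did not pass. DCHS1, the partner of FAT4, gave 6.61, 6.52 and 6.49 in SAHA, against 6.76, 6.47 and 6.52 in control and did not pass (adjusted p = 0.655), and neither did DCHS2.

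Of the 3 CELSR cadherins, 2 fell and 1 did not pass. CELSR1, which joins neighbouring epithelial cells in planar polarity, gave 8.89, 8.84 and 8.84 in SAHA, against 9.40, 9.63 and 9.32 in control, a 1.51-fold fall (adjusted p = 0.000215). CELSR3, needed for axon tracts in mouse, fell 1.18-fold (adjusted p = 0.00593). CELSR2 gave 9.49, 9.47 and 9.53 in SAHA, against 9.43, 9.47 and 9.31 in control and did not pass (adjusted p = 0.176).

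Among 13 core genes of planar cell polarity, 7 were lower, 2 were higher and 4 did not pass, with a median change of -0.25. The receptor FZD6, which acts with CELSR proteins, fell 2.16-fold, and the signal adaptor DVL3 and the membrane protein VANGL1 fell 1.47-fold and 1.40-fold. ANKRD6, the homologue of the Drosophila gene diego, rose 2.29-fold. CELSR1 and FZD6 thus both fell, as did VANGL1.

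Of 13 measured catenins and other cadherin-bound proteins, 7 were higher, 4 were lower and 2 did not pass. Of all genes, 31.1% were higher and 28.9% lower. CTNNB1 (beta-catenin), the tail partner of classical cadherins, gave 12.51, 12.53 and 12.48 in SAHA, against 12.85, 12.77 and 12.87 in control, a 1.25-fold fall (adjusted p = 0.000329). CTNNA1 (alpha-catenin), the link to actin, changed by 0.11 and did not pass (adjusted p = 0.0597). The nectins are adhesion proteins that assemble junctions with cadherins, and NECTIN1 fell 1.74-fold, NECTIN4 rose 2.05-fold and NECTIN3 rose 2.14-fold. The control arrays of NECTIN3 were spread from 8.32 to 9.34, and its call was lost in an unmoderated test (adjusted p = 0.0553). PKP4, related to the plakophilins, fell 1.30-fold.

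Cadherins are shed by metalloproteases and cut again by gamma-secretase. Of 10 measured genes of these enzymes, 4 were higher, 4 were lower and 2 did not pass, beside 31.1% of all genes higher and 28.9% lower. ADAM10, the main sheddase of E-cadherin and N-cadherin, gave 12.25, 12.21 and 12.20 in SAHA, against 12.19, 12.13 and 12.11 in control and did not pass (adjusted p = 0.154). ADAM15 rose 1.86-fold, and the membrane protease MMP14 fell 2.24-fold. Among the gamma-secretase subunits NCSTN fell 2.20-fold and APH1A 1.81-fold, while PSENEN rose 1.47-fold.

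Of the remaining marker lists, 7 blood cell markers gave 1 higher, 1 lower and 5 not passing, with a summed signal of 1919 to 1972 in SAHA and 865 to 1016 in control. The higher one was CD68, a lysosomal protein used as a macrophage marker, at 10.63 ± 0.02 in SAHA and 9.09 ± 0.22 in control, a 2.92-fold rise (limma, adjusted p = 3.12e-06), and the lower one was the B cell gene CD79A, by 1.21-fold. PTPRC, the common leukocyte antigen, stood at 4.08 ± 0.12 in SAHA and 4.05 ± 0.07 in control (SD, n = 3 each).

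The 7 rhabdoid and mesenchymal markers gave 2 higher, 4 lower and 1 not passing, with a summed signal of 14169 to 14346 in SAHA and 15860 to 16830 in control. FN1 (fibronectin), a matrix protein of mesenchymal cells, stood at 10.73 ± 0.02 in SAHA and 7.48 ± 0.34 in control, a 9.51-fold rise (SD, n = 3 each, limma, adjusted p = 4.96e-07), and the proteoglycan GPC3 rose 2.29-fold. The lower ones were CD44 by 1.50-fold, SMARCB1 by 1.43-fold, VIM by 1.14-fold and SALL4 by 1.13-fold. SMARCB1 is in this list although rhabdoid tumours typically lack it, so its fall is not the fall of a marker present in such cells.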

How the data were processed

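Per the labels' protocols, Trizol was used to extract total RNA, which was amplified with a whole-transcript kit from Ambion for Affymetrix arrays. The authors deposited 1 intensity for each probe set and array, made with RMA per the submitters' processing notes, a method that subtracts background, equalises the arrays by quantiles and summarises probes. No source used here gives its version. The values are linear, between 6.56 and 20338, and were turned into log2. RMA brings the arrays to nearly one distribution, with medians of 142 to 149, so a difference in the RNA content of cells is not visible. The number of arrays limits the precision.

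Of 33252 probe sets, 19460 named 1 gene. Symbols were updated through Entrez identifiers with RefSeq's gene table of GRCh38.p14, which matched 19429. For each of 18417 genes the probe set whose mean over the 6 arrays was highest was kept. An antisense RNA, CDH4-AS2, was left out. Promoter letters came from RefSeq windows, which 56 of the 79 genes have.

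SAHA was compared with control for all genes with limma 3.58.1 in R 4.3.3 (lmFit and eBayes, 2-sided, no covariates, 4 residual degrees of freedom). Intervals are 95% intervals from that model, and ± is the SD of 3 arrays unless called SE. In simulated data with 18417 genes, 67 genes were changed by 0.5 on the log2 scale, 67 by 1 and 66 by 2. The recovery was 79.1% at a log2 change of 0.5 and 100% at a log2 change of 1, with 6 false calls. In the measured data 60% of all genes were called, so these figures need not hold there.

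The members and all gene lists were chosen with earlier results of these data known. Genes were named by a rule: members changed at least 2-fold, the 3 with the highest signal per subfamily, a few fixed members and from each list the 3 whose adjusted p was smallest, some left out for length. Other members were added to account for all 79, and other list genes were chosen after their values were seen. Alternatives were other scalings, filters, variance models, a replicate block, each array left out, and cyclic loess scaling, which was added after seeing the data.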

Additional observations from a re-analysis of the deposited data

Results flagged for a closer look

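Signal appeared on probe sets that the comparisons above did not use, because they name more than 1 gene. Both probe sets that name PCDH11X and PCDH11Y together, a delta-1 protocadherin and its near-identical copy, gave higher values in SAHA than in control. The first gave 6.60, 6.32 and 6.26 in SAHA, against 5.23, 5.25 and 5.10 in control, a difference of 1.20 on the log2 scale. The other gave 6.69, 6.42 and 6.38 in SAHA, against 5.32, 5.34 and 5.10 in control, a difference of 1.24. The groups did not overlap on either probe set. The copies cannot be told apart on these probe sets, and the difference was not tested.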

How the results depend on the processing

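The 11 genes changed at least 2-fold kept their direction and their call in every alternative in which they were fitted, and 34 of the 49 called genes did so in all of theirs. Adding 16 to the signal before log2 left 9 of the 11 at 2-fold, since PCDHB14 and PCDHB10 came to 0.98 and 0.85. Leaving out genes with a mean under the median kept 29 cadherin genes in the test, of which 21 were called and 6 were higher, 4 changed at least 2-fold and 2 of these were higher, with 3660 of all genes higher. With fewer genes tested, fewer could be called. An unmoderated test called 11 cadherin genes lower in place of 19. With 1 array left out, 10 to 18 were lower, 26 to 31 were higher and 38 to 47 were called, the fewest lower ones being 10 without SAHA replicate 2 and 12 without SAHA replicate 3. The cause was not tested.

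Of the 30 genes that did not pass, 13 changed sign in an alternative, none of them past the threshold there, and 10 passed in an alternative without changing sign. CTNNA1, ADAM10, VWF, MYOG, MYOD1, KRT8 and RBFOX3, which did not pass, also passed in at least 1 alternative. A further quantile normalization, which moved the median change of all genes by less than 0.1, turned CDH17 (0.0067), CDH20 (-0.030), DCHS2 (-0.0090), FAT1 (-0.010), FAT2 (0.023), PCDH8 (-0.015) and the plaque gene PKP1 (-0.053). Array weights turned DSG1 (0.087) and PCDHGB4 (-0.015), and cyclic loess scaling CDH17 (0.0010). With 1 array left out, the changes ran from -0.106 to 0.0169 for CDH16, from -0.0829 to 0.0255 for CDH17, from -0.0293 to 0.111 for CDH20, from -0.0297 to 0.0599 for CDH9, from -0.103 to 0.0420 for DCHS1, from -0.0261 to 0.0318 for DCHS2, from -0.169 to 0.150 for DSG1, from -0.0535 to 0.0202 for PCDH12, from -0.0012 to 0.0236 for PCDH7, from -0.0250 to 0.0469 for PCDHGB4, from -0.0297 to 0.0779 for PTPRC and from -0.101 to 0.0865 for the neural marker ELAVL4.

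The groups share replicate numbers in the labels, but same-numbered arrays did not deviate together, with correlations of -0.03, -0.17 and -0.0042 over genes. With the replicate number as a block, 47 cadherin genes were called, 30 higher and 17 lower, and 11 at least 2-fold, which 29 of the 30 higher and 17 of the 19 lower calls shared with the fit without it.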
